A study of Homo sapiens with 10 samples.

Results

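Of the collagen, laminin and integrin genes sought, 1 was named on these arrays: COL26A1, which encodes the alpha 1 chain of collagen XXVI. Members were rows whose platform gene symbol was COL with a number, A and a number, or LAMA, LAMB or LAMC with a number, or ITGA or ITGB with further letters or digits, leaving out ITGB3BP and ITGB1BP, whose products bind integrin tails and are not integrins. RefSeq lists 83 protein-coding genes with such symbols, 44 collagens, 12 laminins and 27 under the integrin symbols. The other 82 were not analysed here. The platform table gave 37519 of 53617 rows no symbol, and whether those 82 genes lie among them was not examined. COL26A1 was thus 1 of 14884 named genes, it had 1 row, and nothing below speaks for the collagens, laminins or integrins as families. A contrast of expressed with silent members needs members of both kinds and could not be made.

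RNA came from 10 clones of PC-3, a long-used human line grown from a bone metastasis of prostate cancer, all of which had received a lentiviral vector and blasticidin selection. In the CENPU clones (numbers 1, 4, 5, 7 and 13) the vector carried CENPU, which encodes a protein of the inner kinetochore, and in the control clones (numbers 1 to 5) it was empty. Each clone was measured on 1 Affymetrix array, and the deposited values are log2 expression values. Clones were isolated separately, so differences between them include differences between isolates, and the number of clones limits the precision.

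Collagens are secreted proteins whose chains wind into a triple helix, and laminins are the cross-shaped proteins of basement membranes. Integrins are receptors of an alpha and a beta subunit that bind such ligands outside the cell and link them to actin inside. In carcinoma cells these genes are studied for adhesion, spreading and invasion. Collagen XXVI is a secreted, glycoprotein-like collagen with an EMI domain, first described in mouse testis and ovary.

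COL26A1 did not differ detectably between the groups. CENPU clones 1, 4, 5, 7 and 13 read 6.36, 6.13, 6.41, 6.13 and 5.99 on the log2 scale. Control clones 1 to 5 read 6.15, 6.27, 6.19, 6.22 and 6.19. The highest and the lowest value of all 10 were both in CENPU clones, 5 and 13, and the control values lay between them. The groups therefore overlapped.

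COL26A1 averaged 6.20 ± 0.18 in CENPU clones and 6.20 ± 0.05 in control clones (SD, n = 5 each). CENPU clones exceeded controls by 0.0019 ± 0.10 on the log2 scale (difference ± SE; limma, adjusted p = 0.991 by Benjamini-Hochberg over all named rows). The 95% interval of that difference ran from -0.21 to 0.21, that is from 0.865-fold to 1.16-fold. These clones do not tell a difference inside those bounds from none, and the missed threshold does not show that the levels are equal. The exact two-sided permutation test over clones gave p = 1, where 0.00794 is the smallest value it can give.

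Among all named genes 10.1% passed at an adjusted p under 0.05 (5.31% higher and 4.79% lower in CENPU clones), and 9.73% had groups without overlap. Of the members, 0 of 1 passed in limma, and 0 of 1 at an unadjusted p under 0.05. In absolute size, 0.504% of named genes had a smaller log2 difference than COL26A1, and the median absolute difference over all of them was 0.18. The signed median over all named genes was -0.02.

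The spread of COL26A1 was wider among the CENPU clones than among the controls, with a range of 0.43 in CENPU clones and 0.12 in control clones. That difference in spread was not tested. The residual SD of COL26A1 within groups was 0.13 on the log2 scale, against a median of 0.21 over all named genes, and 14.1% of named genes had a smaller one.

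**Figure D1:**
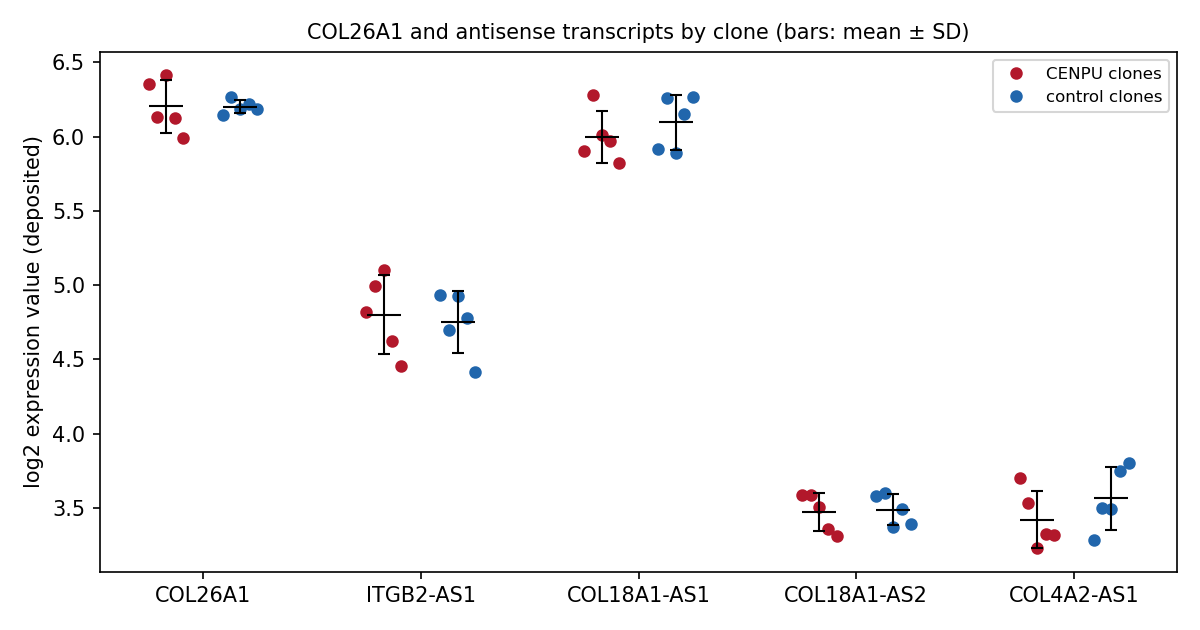
Deposited log2 expression values of COL26A1 and of 4 antisense transcripts, 1 point per clone, with CENPU clones left of control clones and black bars for the mean ± SD of 5 clones. COL26A1 has the same mean of 6.20 in both groups, with CENPU clones 5 and 13 as its highest and lowest points.

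COL26A1 is a long gene, and the arrays of these clones differ in how the values of long and short genes stand to each other. Its genomic span in RefSeq (GRCh38.p14) is 196637 bases, longer than 92.4% of the named protein-coding genes. The span trend of a clone is given here as Spearman's correlation, across protein-coding genes, between span and the clone's deviation from the mean of all 10. CENPU 13 and CENPU 7 had the highest, 0.36 and 0.32, and there COL26A1 stood 0.21 and 0.07 below its own mean over all 10 clones. CENPU 5, 4 and 1 had 0.20, -0.04 and -0.16, and there COL26A1 stood at 0.21, -0.07 and 0.15 from that mean. In control clones the trend lay between -0.36 and -0.09, and COL26A1 within -0.06 and 0.06 of its mean. With the trend removed from each array, COL26A1 differed by -0.21 ± 0.14 on the log2 scale (difference ± SE, limma adjusted p = 0.331). The part of the trend in the COL26A1 values was not tested further.

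**Figure D2:**
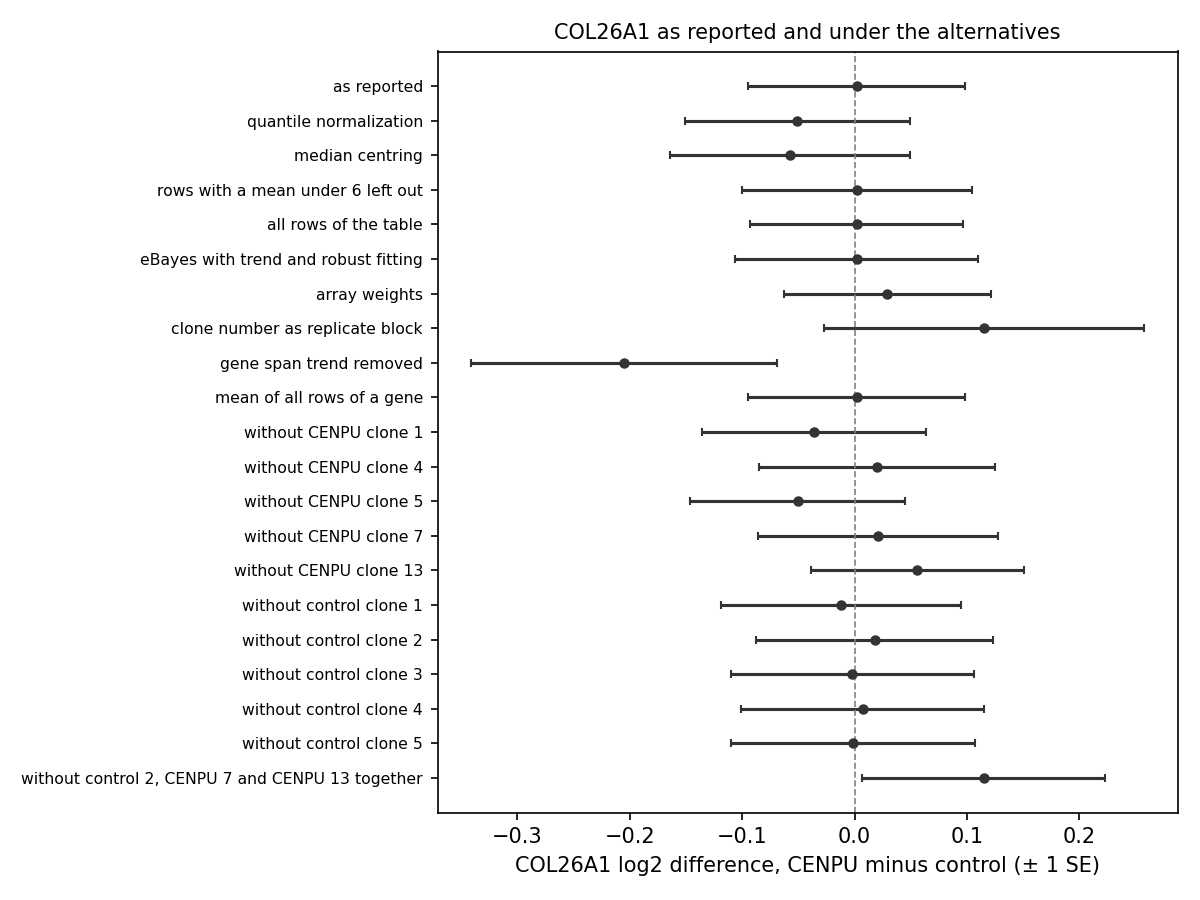
Log2 difference of COL26A1, CENPU minus control clones, as reported and in each alternative fit, with bars of 1 standard error. Values run from -0.21 with the gene span trend removed to 0.11 with the clone number as a block, and the point changes sides of 0 among them.

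The level of COL26A1 cannot be called expressed or silent with confidence. Its mean over all 10 clones was 6.20, above a fixed limit of 6 and below one of 7, and array medians over all rows lay between 4.62 and 4.76. Probe sets differ in background, so these limits do not compare COL26A1 with other genes. A limit taken from olfactory receptor genes could not be set, because 1 such row was named.

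Antisense transcripts named for genes of these families were also looked at, and they are not counted as collagens or integrins. Symbols that start with ITGA or ITGB were searched for. The collagen antisense rows were picked by name, so other rows named for collagens or laminins may exist. ITGB2-AS1, antisense to an integrin beta gene, would enter under a reading of the rule that admits hyphens. It had 4.82, 5.00, 5.10, 4.62 and 4.46 in CENPU clones 1, 4, 5, 7 and 13, against 4.93, 4.70, 4.93, 4.78 and 4.42 in control clones 1 to 5. The groups overlapped, with a difference of 0.05 ± 0.14 on the log2 scale (± SE, limma adjusted p = 0.860). COL18A1-AS1, COL18A1-AS2 and COL4A2-AS1 had log2 differences of -0.10, -0.02 and -0.14, and none of these passed (limma adjusted p = 0.622, 0.929 and 0.491). Whether the probes of these rows also pick up the sense transcripts was not tested.

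Of the genes that the rule leaves out by name, ITGB3BP, also known as the kinetochore protein gene CENPR, averaged 5.47 ± 0.41 in CENPU clones and 4.85 ± 0.20 in control clones (SD, n = 5 each). The difference of 0.62 ± 0.18 (± SE) did not pass (limma adjusted p = 0.0523). ITGB1BP1, which binds the beta 1 tail, had a log2 difference of 0.21 and ITGB1BP2 one of -0.11, and neither passed (limma adjusted p = 0.413 and 0.424).

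Around COL26A1, 121 of the 169 genes of 5 related lists had a named row. Whether the rest lie among the 37519 rows without a symbol was not examined. The lists cover matrix proteins, collagen processing and crosslinking, matrix proteases, integrin adaptors and other matrix receptors. Of the 121 genes, 9 were higher and 8 lower in CENPU clones, 14.0% in all against 10.1% of all named genes. By list, 9.09% of matrix glycoproteins and proteoglycans, 17.6% of collagen processing genes and 10% of proteases and inhibitors passed. The shares were 19.4% for integrin adaptors and 14.3% for other receptors. The median log2 difference of the 121 was 0.03. The lists were written with earlier results of these data known, so setting these shares side by side is not a test. The collagen processing and crosslinking list, the closest to COL26A1 by function, holds enzymes and also proteins that are not enzymes. Whether any of them acts on collagen XXVI was not tested. Of 33 genes in that list, 17 had a named row. Of those 17, 3 fell and 0 rose, with a median of -0.12. COLGALT1, which adds galactose to hydroxylysine, fell by 0.48 on the log2 scale (limma adjusted p = 0.0124). The prolyl 3-hydroxylase P3H1 fell by 0.40, and BMP1, which cleaves procollagen ends, by 0.42 (limma adjusted p = 0.0219 and 0.0318). Of 33 matrix glycoproteins and proteoglycans, median 0.09, fibronectin gene FN1 and fibrillin gene FBN2 rose, by log2 differences of 2.21 and 1.22, and tenascin gene TNXB fell by 0.33 (limma adjusted p = 0.0124, 0.0102 and 0.0356). The TNXB call was lost when its rows were averaged (-0.14, limma adjusted p = 0.453), and its share of signal from a partial copy of the gene was not tested. Of 20 matrix proteases and inhibitors, median -0.04, the inhibitor TIMP1 fell by 0.84 and the membrane-anchored MMP17 by 0.55 (limma adjusted p = 0.0117 and 0.0233).

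Of 31 integrin adaptors and signalling genes, median 0.13, 5 rose and 1 fell. With the span trend removed 2 of them rose and 2 fell, and over all named genes 763 rose and 797 fell. As reported, GIT1, a scaffold at focal adhesions, fell by 0.71 (limma adjusted p = 0.00370). Its paralog GIT2 rose by 0.64, the cytoskeletal linker DST by 0.93 and the integrin activator TLN2 by 0.45 (limma adjusted p = 0.0138, 0.00918 and 0.0196). The other 2, named after their values were seen, were the focal adhesion kinase gene PTK2 at 0.61 and DOCK1 at 0.86 (limma adjusted p = 0.0411 and 0.0491). The DST row was dim, with a mean of 5.42 over all clones, under the fixed limit of 6. Of 21 other matrix receptors and integrin partners, median -0.06, the laminin receptor BCAM and the syndecan SDC1 rose, by 0.55 and 0.48, and the syndecan SDC4 fell by 0.69 (limma adjusted p = 0.0175, 0.0331 and 0.0166).

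Several of these calls were lost when 1 clone was left out. TNXB lost its call without CENPU 5, 7 or 13 or control 2, 3, 4 or 5, and BMP1 without CENPU 5, 7 or 13 or control 2, 3 or 5. SDC1 lost it without CENPU 5 or 13 or control 1, 2, 3 or 5, and MMP17 without CENPU 5 or 13 or control 2, 3 or 4. P3H1 lost it without CENPU 5 or control 3 or 4, and TLN2 and BCAM without control 4. PTK2 passed in the fits without CENPU 1 or 4 and lost its call without any of the other 8 clones, and DOCK1 lost it without CENPU 5, 7 or 13 or control 2, 3, 4 or 5. The limma adjusted p in those fits was at most 0.115. SDC1 also missed the threshold after quantile normalization (0.40) and median centring (0.42). With the span trend removed 4 genes missed it, SDC1 (0.43), TLN2 (0.24), PTK2 (0.40) and DOCK1 (0.65). Other list genes passed in that fit and not as reported. These were TIMP2 (-0.38), SRC (-0.66), TMEM38B (-0.81), TNC (-0.64) and CD47 (0.68), named here after their values were seen. TNXB and DOCK1 missed the threshold with trend and robust fitting in eBayes (limma adjusted p = 0.0638 and 0.0532). PTK2 and DOCK1 missed it with all rows of the table in the fit (limma adjusted p = 0.0568 and 0.0688). In the protease list 7 genes passed without CENPU 1, 3 of them higher. The collagen processing list had 1 without CENPU 5 or control 3, and the proteases 1 without CENPU 5 or 13 or control 2, 3 or 4. The adaptors had 3 without control 4, and the other receptors 5 without CENPU 1 or 4. With control 2, CENPU 7 and CENPU 13, whose span trends were the most extreme, all left out, 10 of the 15 related genes named by rule lost their call (limma adjusted p from 0.0603 to 0.182), and FN1 still passed at 1.28. In that fit COLGALT1, P3H1 and BMP1 were all among the lost calls. The collagen processing list instead held 1 gene higher and 1 lower, LOXL1 at 0.98 and TMEM38B at -1.20, named here after their values were seen.

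**Figure D3:**
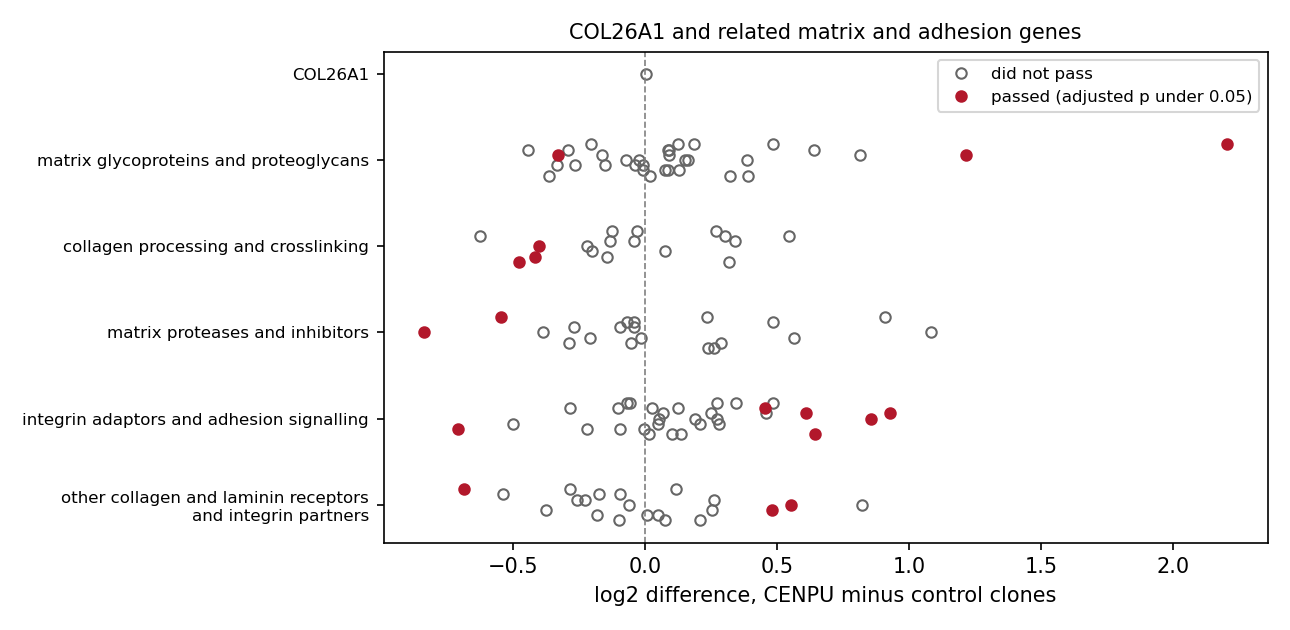
Log2 difference, CENPU minus control clones, of COL26A1 at the top and of each named gene of 5 related lists below. Filled points are genes that passed at an adjusted p under 0.05. COL26A1 lies at 0, and the points farthest to the right and left are FN1 at 2.21 and TIMP1 at -0.84.

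The labels were checked on the arrays. CENPU averaged 9.34 ± 0.43 in CENPU clones and 6.26 ± 0.29 in control clones (SD, n = 5 each). Of 6 epithelial line markers 5 were named, with means over all clones of 6.43 for EPCAM to 11.1 for HOXB13. The androgen targets KLK3 and KLK2, known to be low in PC-3, had means of 5.59 each. Markers of other cells ranged widely, from 2.77 for DCN to 8.15 for VIM among fibroblast markers, with 4.18 for CD14 and 10.3 for CD68 among leucocyte markers and 4.44 for VWF to 8.28 for KDR among endothelial ones. Of all these markers, HOXB13 and VIM passed, both higher in CENPU clones, and their part in the COL26A1 values was not tested.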

How the data were processed

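The deposited table held log2 expression values of 53617 probe-set rows, 1 column per clone, from 1.65 to 15.0. Per the submitters' processing notes, the authors used Partek and RMA (background correction, quantile normalization, probe summary). The log2 scale was inferred from the values. Quantile normalization removes a change shared by most genes, and background makes differences of dim rows too small. Arrays have no read depth.

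The platform table gave 16098 rows 1 symbol, none several, and 37519 none. Where a gene had several rows, the one with the highest mean over all clones was used. Groups came from the labels, and p-values set the difference between groups against the spread between clones. All named rows were fitted with limma 3.58.1 (R 4.3.3; lmFit, eBayes, no covariates), with Benjamini-Hochberg adjustment and a threshold of 0.05. The fit was tested on simulated data. Single values also had exact permutation tests.

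Members and lists were chosen with earlier results of these data known. Every member was named, and from each list up to 4 genes that passed, by smallest p, plus FN1. The fixed limit of 6, also used to leave out dim rows, replaced the planned olfactory receptor limit after the data were seen.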

Additional observations from a re-analysis of the deposited data

Results flagged for a closer look

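In 34 groups of 5 clones (COL26A1, CENPU and the related genes named by rule, in each group), 2 had a clone far from the other 4 by Dixon's ratio of its gap to the range, where 0.71 is the critical value and chance gives about 1 in 20. TLN2 in CENPU clone 4 was 6.81, with the next value at 6.41 (ratio 0.909). SDC1 in CENPU clone 7 was 10.2, with the next value at 10.5 (ratio 0.805). No COL26A1 value was singled out in either group.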

How the results depend on the processing

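COL26A1 did not pass in any of the 22 alternatives run, with limma adjusted p from 0.331 to 0.996. Its log2 difference as reported, 0.0019, turned negative after quantile normalization (-0.051), median centring (-0.058) and removal of the span trend (-0.21). Over fits without 1 clone it ran from -0.051 without CENPU 5 to 0.056 without CENPU 13. Leaving out the 3 clones of most extreme span trend (control 2, CENPU 7 and CENPU 13) gave 0.11. The count of expressed members was 1 at a limit of 6 and 0 at 7. The cause of these shifts was not tested.

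Of all named genes, 253 passed at an adjusted p under 0.01, 2588 at 0.10, 470 without the 3 clones, and 613 to 2471 over fits without 1 clone. The counts in the lists below are given for matrix glycoproteins, collagen processing, proteases, adaptors and other receptors in that order. Under 0.01 they were 0, 0, 0, 2 and 0. Under 0.10 they were 6 for glycoproteins, 10 for adaptors and 5 for other receptors, the last also 5 with array weights or with dim rows left out. Without the 3 clones they were 2 for collagen processing (1 higher, 1 lower), 1 for proteases, 2 for adaptors and 0 for other receptors. Over fits without 1 clone they ran from 2 to 4, 1 to 3, 1 to 7, 3 to 8 and 2 to 5. With the rows of each gene averaged, TNXB (-0.14) and DOCK1 (0.86, limma adjusted p = 0.0502) did not pass.

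Clone numbers 1, 4 and 5 occur in both groups but are not said to pair the clones, and deviations of same-numbered clones correlated at -0.38, 0.10 and 0.02. With the clone number as a block, where only the 3 shared numbers inform the difference, COL26A1 was at 0.11 (limma adjusted p = 0.797), 55 genes passed in all, the list counts were 1, 1, 0, 0 and 0, and 14 of the 15 related genes named by rule lost their call, FN1 being the exception (1.24). The olfactory receptor filter was not run, because 1 such row was named.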
